A study of Mus musculus with 19 samples.

Results

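DMC1 signal and H3K4me3 were set against each other at the recombination hotspots of the B6/SPRT hybrid, hotspot by hotspot and separately for each PRDM9 allele. The members were all 18522 autosomal hotspots of this genotype, of 19247 on all its chromosomes and of 74327 listed for the 5 genotypes of the series. B6/SPRT is the male B6SPRTF1 hybrid with wild-type Prdm9 on both homologs. Its mother was a B6 (C57BL/6J) female and its father SPRET/EiJ (SPRT), an inbred strain of Mus spretus. The paper describes the B6 mothers of these hybrids as heterozygous for an engineered (humanized or CAST) Prdm9 allele, which B6/SPRT males did not inherit. Hybrid males were analysed at 10 weeks of age. Whole testis gave 1 DMC1 SSDS library, 2 H3K4me3 ChIP samples and 2 input samples. The authors assigned 9247 of the hotspots (49.9%) to SPRT PRDM9, 4122 (22.3%) to B6 PRDM9 and 50 to a class named KO, which the sources used here do not define. The remaining 5103 hotspots (27.6%) had no allele and are called unassigned. Whole testis mixes spermatocytes with other germ cells and somatic cells, so a change in the share of cells that carry a signal and a change per cell cannot be told apart.

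PRDM9 is a zinc finger protein that binds DNA motifs in meiotic cells and trimethylates histone H3 on the nucleosomes at either side, which is read here as H3K4me3. SPO11 then cuts the DNA at a small part of the bound sites, the ends are resected, and the recombinase DMC1 coats the single strands and searches the homolog for a repair template. DMC1 SSDS sequences those single strands, so its signal depends both on how often a site is cut and on how long the strands stay coated. Active gene starts carry H3K4me3 without PRDM9. In a hybrid, SNPs tell which homolog a read came from, and a motif eroded on one homolog leaves a hotspot that is bound and cut mainly on the other.

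Among the 9 hotspots furthest below the relation of DMC1 to H3K4me3 described below, 3 for each allele, 3 lay within 500 bp of an annotated gene start. Of all hotspots with a known distance, 162 lay that near a start and 17052 lay over 2 kb away. The 9 were picked by their departure, so these 3 are examples and no separate evidence. They are given because the readouts parted at gene starts over the 162, as described below. The 250 bases before the starts of these 3 are shown 5′ to 3′ on the gene's strand, from RefSeq (GRCm38.p6). Each CG dinucleotide is in capitals. Cryaa encodes the lens chaperone alpha-A crystallin and its stretch is chr17:31677681-31677930 on the plus strand. Its start lies 220 bp from a SPRT hotspot. The stretch of Tmem42, a transmembrane protein gene, is chr9:123021076-123021325 on the plus strand, and its start lies 44 bp from an unassigned hotspot. Cdk11b encodes a cyclin-dependent kinase, its stretch is chr4:155624604-155624853 on the plus strand, and its start lies 36 bp from an unassigned hotspot.
Cryaa: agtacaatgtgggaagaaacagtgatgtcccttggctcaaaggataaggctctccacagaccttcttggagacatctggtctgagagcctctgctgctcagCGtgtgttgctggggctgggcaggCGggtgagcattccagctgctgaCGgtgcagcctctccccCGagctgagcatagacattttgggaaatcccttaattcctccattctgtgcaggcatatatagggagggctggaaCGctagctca
Tmem42: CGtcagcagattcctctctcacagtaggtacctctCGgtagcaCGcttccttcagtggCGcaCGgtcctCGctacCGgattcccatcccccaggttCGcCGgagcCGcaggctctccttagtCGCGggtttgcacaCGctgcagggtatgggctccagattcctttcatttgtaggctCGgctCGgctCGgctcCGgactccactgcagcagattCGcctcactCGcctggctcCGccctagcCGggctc
Cdk11b: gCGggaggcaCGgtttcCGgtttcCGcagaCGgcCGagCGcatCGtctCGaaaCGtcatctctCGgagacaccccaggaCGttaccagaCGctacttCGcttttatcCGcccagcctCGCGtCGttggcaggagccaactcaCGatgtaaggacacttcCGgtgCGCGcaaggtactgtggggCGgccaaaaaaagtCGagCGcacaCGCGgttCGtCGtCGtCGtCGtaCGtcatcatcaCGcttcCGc
The stretches hold 5, 21 and 35 CG dinucleotides in that order, against a median of 6 over 32851 stretches of the same length. As many or more were found in 55.6% of all stretches for Cryaa, 16.4% for Tmem42 and 2.97% for Cdk11b. CG reads the same on both strands and was the only motif counted.

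H3K4me3 strength is given as ChIP over input, each a read count in the 1000 bp window around the hotspot center, with 1 added to both. The median window held 132 ChIP and 19 input reads, and counting error of these reads made up 13.6% of the variance of log2 ChIP over input across hotspots. DMC1 signal, the value of the authors' caller, ran from 7.504 to 833 with a median of 54.5. Weaker sites were not called, which cuts off the low end of this readout but not of H3K4me3. Median DMC1 signal was 104 at SPRT, 43.4 at B6 and 19.7 at unassigned hotspots. Median ChIP over input was 8.90, 6.43 and 4.46 in the same order, so both readouts put the alleles in 1 order. SPRT hotspots held 71.8% of summed DMC1 signal and 60.2% of summed ChIP over input. On the X, which a male receives from its B6 mother, 578 of 582 hotspots had 95% or more of their H3K4me3 reads from B6, as had 694 of 698 for DMC1.

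DMC1 signal went up with H3K4me3 in every class of hotspot. Over all autosomal hotspots Spearman's rho between the log2 values was 0.631, and each doubling of ChIP over input went with 0.96 more on the log2 scale of DMC1 signal. Within an allele the relation was looser, with rho 0.568 for B6 (n = 4122), 0.540 for SPRT (n = 9247) and 0.421 for unassigned hotspots (n = 5103). These correlations run across hotspots of the same libraries, which are not replicates, and no test was made. On single autosomes rho was between 0.423 and 0.682 for B6, 0.426 and 0.615 for SPRT, and 0.318 and 0.559 for unassigned hotspots. B6 exceeded SPRT on 10 of 19 autosomes, so these alleles did not differ beyond that spread, whereas SPRT exceeded unassigned hotspots on 18 of 19. Around its own line, DMC1 signal still spread by a factor of 2.37 (1 SD) for B6, 2.05 for SPRT and 1.98 for unassigned hotspots.

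**Figure D1:**
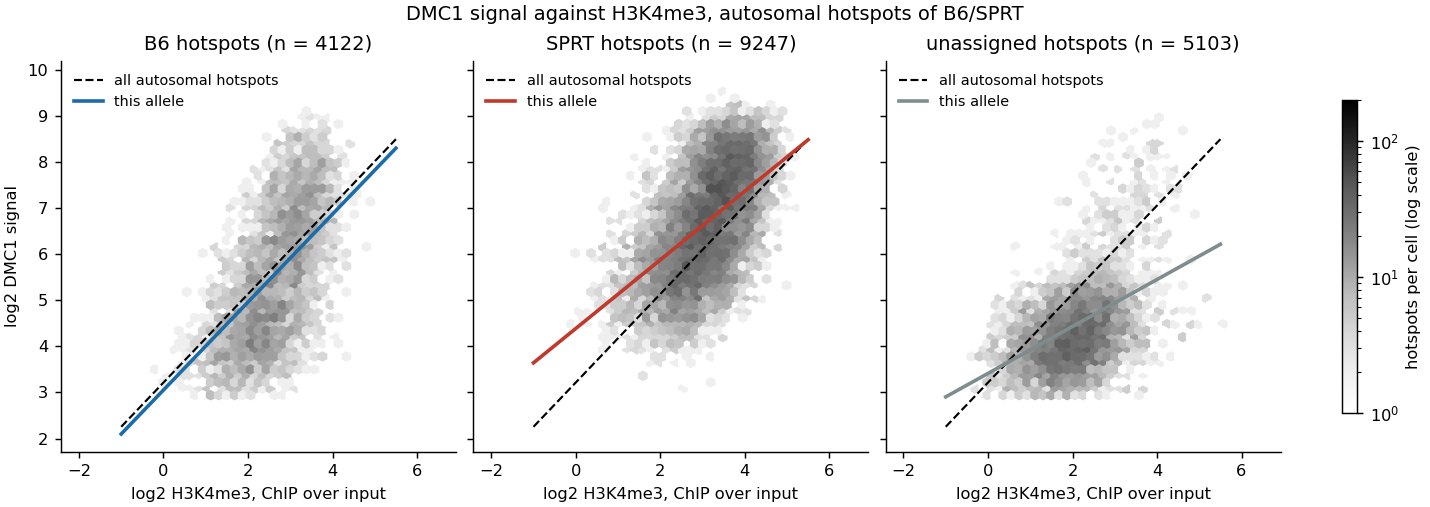
Log2 DMC1 signal (vertical) against log2 ChIP over input for H3K4me3 (horizontal) at B6, SPRT and unassigned autosomal hotspots, shaded by hotspots per cell on a log scale. The dashed line is fitted to all 18522 hotspots and the coloured line to the allele, with slopes of 0.95, 0.74 and 0.51 from left to right.

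The alleles differed in level and, over all their hotspots, in slope. The least squares slope was 0.95 for B6 (SD over autosomes 0.13), 0.74 for SPRT (SD 0.06) and 0.51 for unassigned hotspots (SD 0.08). It was steeper for B6 than for SPRT on 18 of 19 autosomes, and for SPRT than for unassigned hotspots on 19 of 19. With a DMC1 signal of 20 or more, the slopes were 0.70 for B6, 0.69 for SPRT and 0.45 for unassigned hotspots, and rho was 0.467, 0.524 and 0.393. B6 and SPRT were then alike in slope, and SPRT had the higher rho. This limit is set on the fitted readout itself and leaves 3076 of 4122 B6, 9030 of 9247 SPRT and 2484 of 5103 unassigned hotspots. How much of the change comes from the limit itself was not tested. At a ChIP over input of 4, the lines gave a DMC1 signal of 31.1 for B6, 58.7 for SPRT and 21.6 for unassigned hotspots. At 16 they gave 117, 165 and 43.7, so a SPRT hotspot carried more DMC1 than a B6 hotspot of the same H3K4me3 throughout this range. In the bin of the most strongly marked hotspots (ChIP over input from 11.9 to 82.9), the median DMC1 signal was 125 at 558 B6 hotspots (quartiles 61.1 and 213). It was 192 at 2746 SPRT hotspots (quartiles 113 and 288) and 51.1 at 395 unassigned hotspots (quartiles 22.1 and 153). In the weakest of the 5 bins it was 18, 44.0 and 15.8. The KO class had a median DMC1 signal of 11.1 and a median ChIP over input of 1.33, with rho 0.502 over its 50 hotspots.

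Homolog fractions followed each other far more closely than strengths did. They were compared at the 13325 hotspots with a B6 fraction of DMC1 and with 50 or more SNP-carrying H3K4me3 reads, which are 59.7% of B6, 79.6% of SPRT and 68.5% of unassigned hotspots. Spearman's rho was 0.891 for B6 (n = 2462), 0.908 for SPRT (n = 7363) and 0.884 for unassigned hotspots (n = 3494), and the lowest value on any autosome was 0.829, for B6. Both readouts lay on the same side of 50% at 84.9% of hotspots. The scales were not the same, however. DMC1 was further from 50% than H3K4me3 at 89.0% of B6, 85.3% of SPRT and 84.8% of unassigned hotspots, and the slope of the DMC1 on the H3K4me3 fraction was 1.16, 1.33 and 1.38. Where 75 to 90% of H3K4me3 reads came from B6, the median DMC1 fraction was 97.4% at SPRT hotspots (n = 1686) and 95% at B6 hotspots (n = 161). Where 10 to 25% did, it was 2.79% at B6 hotspots (n = 692) and 3.36% at SPRT hotspots (n = 316).

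**Figure D2:**
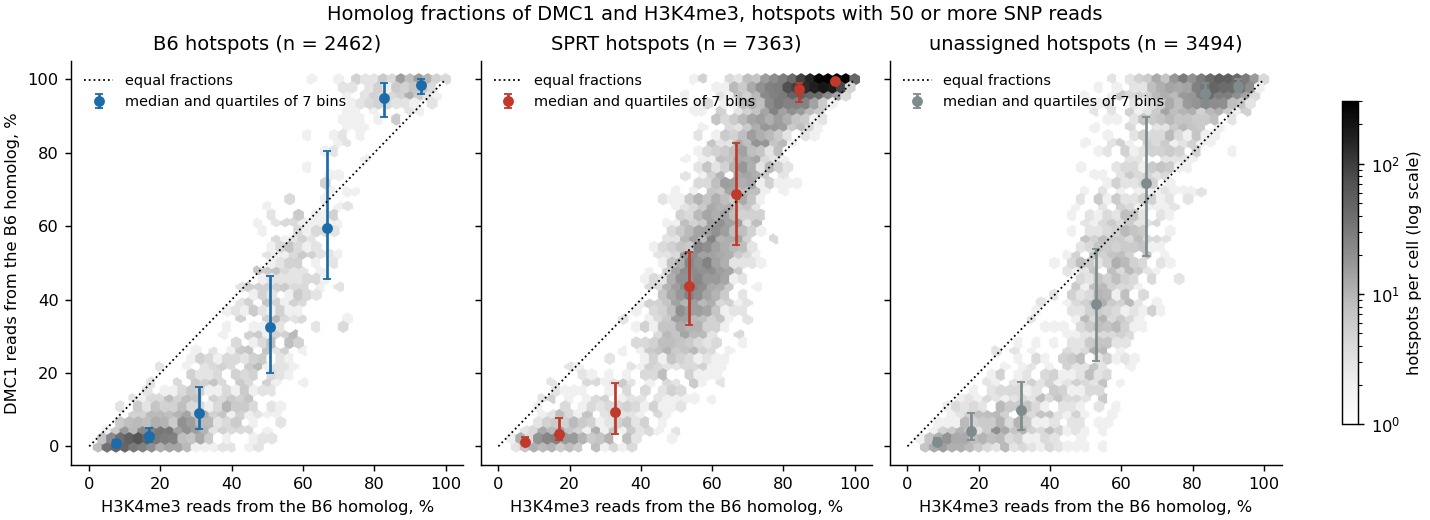
Percentage of DMC1 reads (vertical) and of H3K4me3 reads (horizontal) that came from the B6 homolog, shaded by hotspots per cell on a log scale. Points and bars are the median and quartiles of DMC1 in 7 bins of H3K4me3, and the dotted line marks equal fractions: the points run below it at low and above it at high H3K4me3 fractions, and at H3K4me3 fractions of 40 to 60% they lie at 32.6% for B6 and 43.8% for SPRT hotspots.

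The middle of the range differed between alleles. At hotspots with 40 to 60% of H3K4me3 from B6, the median DMC1 fraction was 32.6% for the B6 allele (quartiles 20 and 46.4%, n = 648). It was 43.8% for SPRT (quartiles 33.0 and 52.9%, n = 1534) and 38.9% for unassigned hotspots (quartiles 23.3 and 53.9%, n = 905). So where H3K4me3 was about even, DMC1 leaned to the SPRT homolog, for B6 hotspots most. The median H3K4me3 fraction within that bin was 50.6, 53.6 and 52.9%, on the B6 side of even in each. The DMC1 fraction lay outside the 95% Wilson interval of the H3K4me3 fraction at 88.2% of B6, 88.1% of SPRT and 83.8% of unassigned hotspots, beside 87.0% of all hotspots compared. These intervals cover counting error of H3K4me3 only, and the number of reads behind a DMC1 fraction is unknown.

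Hotspots were then put in 3 classes by either readout: SPRT-sided with under 25% of reads from B6, matched with 25 to 75%, and B6-sided with over 75%. The classes agreed at 70.8% of B6 hotspots (95% Wilson interval 69.0 to 72.6%), 85.6% of SPRT hotspots (84.8 to 86.4%) and 70.3% of unassigned hotspots (68.8 to 71.8%). Disagreement was mostly of one kind. Of 1589 hotspots that were SPRT-sided by H3K4me3, 1579 were SPRT-sided by DMC1, and of 5265 B6-sided ones, 5164 were B6-sided by DMC1. Opposite classes were found at 5 hotspots, which is 0.0375% of those compared: 1 for B6, 2 for SPRT and 2 unassigned. By contrast, hotspots matched by H3K4me3 were often one-sided by DMC1. They numbered 702 for B6 (28.5% of the hotspots of that allele compared), 1009 for SPRT (13.7%) and 993 for unassigned hotspots (28.4%), beside 20.3% of all hotspots compared.

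For the B6 allele this shift had a direction. Of its 1314 hotspots matched by H3K4me3, 620 were SPRT-sided by DMC1 (47.2%, interval 44.5 to 49.9%) and 82 were B6-sided (6.24%, interval 5.06 to 7.68%). Of 3139 such SPRT hotspots, 423 were SPRT-sided (13.5%, interval 12.3 to 14.7%) and 586 B6-sided (18.7%, interval 17.3 to 20.1%). Of 2015 such unassigned hotspots, 28.3% were SPRT-sided, between the shares of the B6 and SPRT alleles, and 21.0% were B6-sided, above both. Matched hotspots of the SPRT allele were not spread evenly: 1348 had 60 to 75% of their H3K4me3 from B6 and far fewer had 25 to 40%. The median DMC1 fraction was 68.8% (quartiles 54.9 and 82.8%) in the first of these bins and 9.26% (quartiles 3.49 and 17.3%) in the second. At B6 hotspots the same bins held 243 and 421, with medians of 59.5 and 8.99%.

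Part of the gap in scale went with the level of H3K4me3 over input. In 5 bins of equal number by ChIP over input within an allele, the slope between the log2 odds of the fractions went from 1.98 in the weakest to 1.47 in the strongest bin for B6. It went from 1.99 to 1.455 for SPRT and from 2.19 to 1.66 for unassigned hotspots. The share of H3K4me3-matched hotspots that DMC1 called one-sided was 60.9 and 47.3% in the weakest and strongest bin of B6, 47.2 and 27.5% of SPRT, and 66.7 and 43.1% of unassigned hotspots. It was lowest in the middle bin for SPRT (25.1%) and unassigned hotspots (39.6%), so it did not fall throughout. The median number of SNP-carrying reads differed between the weakest and strongest bins too, at 93 and 454 for B6, so strength and depth cannot be told apart here. In an alternative chosen after seeing the data, reads at the level of input (an enrichment of 1) were taken as 50% B6 and subtracted, at hotspots with an enrichment of 2 or more. The share of hotspots with DMC1 further from 50% than H3K4me3 then went from 88.7 to 71.8% for B6, from 85.3 to 59.4% for SPRT and from 84.4 to 59.1% for unassigned hotspots. The subtraction can only move an H3K4me3 fraction away from 50%. This share could thus not rise, and wider H3K4me3 fractions tend to lower the slope too, so the direction of these changes was fixed in advance. With this subtraction the slopes were 0.95, 1.14 and 1.06, and 41.3% of the H3K4me3-matched B6 hotspots were SPRT-sided by DMC1 and 4.36% B6-sided.

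Signal and fraction can be joined into a level for each homolog, the product of strength and the share of reads from that homolog. At the same hotspots rho between the totals was 0.538 for B6, 0.531 for SPRT and 0.412 for unassigned hotspots, and each product had a higher one. The fractions, which follow each other closely, enter both products. For the B6 allele rho was 0.775 on the SPRT homolog and 0.704 on the B6 homolog (n = 2462). For the SPRT allele it was 0.824 on the SPRT homolog and 0.695 on the B6 homolog (n = 7363), and for unassigned hotspots 0.728 and 0.649 (n = 3494). The homologs split unevenly: the median product of DMC1 signal at B6 hotspots was 29.0 on the SPRT and 4.94 on the B6 homolog, and that of ChIP over input 3.87 and 1.91. At SPRT hotspots the medians were 7.89 on the SPRT and 77.7 on the B6 homolog for DMC1, and 1.75 and 6.83 for ChIP over input.

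Hotspots one-sided by H3K4me3 carried more DMC1 for their H3K4me3 than matched hotspots, except B6-sided hotspots of the B6 allele, and B6-sided unassigned hotspots were little above matched ones. For the B6 allele the median DMC1 signal per unit of ChIP over input was 13.5 at 901 SPRT-sided, 5.13 at 1314 matched and 4.59 at 247 B6-sided hotspots. SPRT-sided hotspots were thus 2.64 times the matched value, above it on 19 of 19 autosomes, and B6-sided hotspots 0.895 times, above it on 4 of 17 autosomes with 5 or more such hotspots. With classes taken from the DMC1 fraction instead, these factors were 2.34 and 1.003. For the SPRT allele the values were 13.9 at 358 SPRT-sided, 9.86 at 3139 matched and 14.9 at 3866 B6-sided hotspots. Both one-sided classes were above matched there, by 1.41 and 1.51 times, on 18 of 18 and 19 of 19 autosomes. Unassigned hotspots resembled the B6 allele, with 1.8 times for SPRT-sided (19 of 19 autosomes) and 1.07 times for B6-sided hotspots (13 of 19). Within bins of equal H3K4me3 strength the SPRT-sided hotspots of the B6 allele stayed between 2.13 and 3.44 times the matched value. Those of the SPRT allele were 1.2 to 1.525 times and its B6-sided hotspots 1.24 to 1.802 times.

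**Figure D3:**
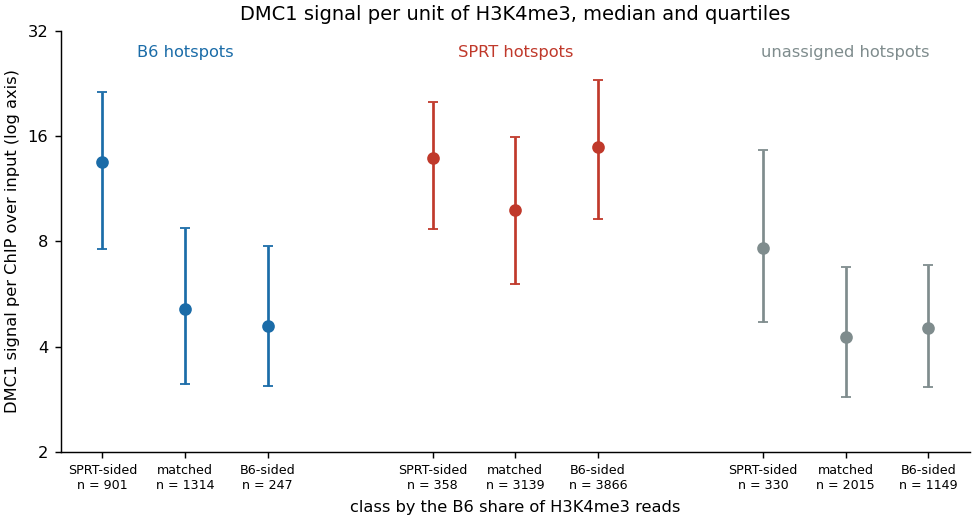
DMC1 signal divided by ChIP over input (log axis), as median (point) and quartiles (bars) of hotspots in each class by H3K4me3, for the B6, SPRT and unassigned hotspots. SPRT-sided hotspots of the B6 allele stand at 13.5 against 5.13 for matched ones, whereas for the SPRT allele both one-sided classes, at 13.9 and 14.9, stand above matched hotspots at 9.86.

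The least squares line through all 18522 hotspots served to count hotspots that departed from it. A DMC1 signal 2-fold or more above the line was found at 22.2% of all autosomal hotspots and one 2-fold or more below it at 22.2%. For SPRT, 3047 hotspots (33.0%, 95% Wilson interval 32 to 33.9%) were above and 745 (8.06%, 7.52 to 8.63%) below. For B6, 757 (18.4%, 17.2 to 19.6%) were above and 1132 (27.5%, 26.1 to 28.9%) below. Unassigned hotspots lay mostly under the line, with 293 (5.74%, 5.14 to 6.41%) above and 2233 (43.8%, 42.4 to 45.1%) below, and their median was 0.551 times the line. From a reduced major axis line instead, 752 unassigned hotspots were above and 1379 SPRT hotspots below. In the KO class 8 of 50 were above and 11 below. These counts read the difference in level between alleles given above in another form, and are no separate result.

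**Figure D4:**
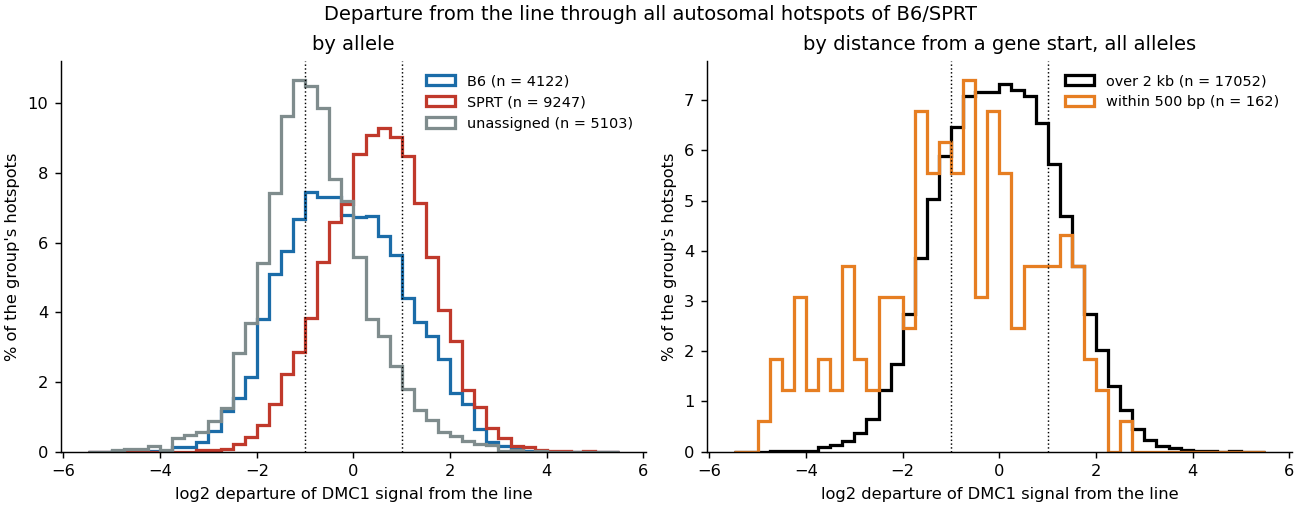
Percentage of each group's hotspots (vertical) by log2 departure of DMC1 signal from the line through all autosomal hotspots (horizontal), by allele on the left and by distance from a gene start on the right. Dotted lines mark a departure of 2-fold: SPRT hotspots have their median at 1.45 and unassigned hotspots at 0.551 times the line. Under the lower line lie 46.3% of hotspots within 500 bp of a gene start and 22.0% of those over 2 kb away, with alleles pooled.

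Near gene starts hotspots had more H3K4me3 than elsewhere and less DMC1 for that H3K4me3. Distances were known for hotspots on all autosomes but chromosome 18, whose 725 hotspots were left out here. The 162 hotspots within 500 bp of an annotated start had a median ChIP over input of 12.1, against 6.83 at 17052 hotspots over 2 kb away, and a median DMC1 signal of 44.0 against 54.5. The lower pooled DMC1 signal went with the mix of alleles, since within each allele the median near starts was not below that over 2 kb away: 59.95 against 43.8 for B6, 107 against 103 for SPRT and 23.3 against 19.5 for unassigned hotspots. Median ChIP over input was 10.1 against 6.46, 11.3 against 8.88 and 16.9 against 4.44 in that order. Over all 162, the median was 0.544 times the line and 75 (46.3%) lay 2-fold or more below it. Over 2 kb away the median was 1.003 times the line and 22.0% lay below. The mix of alleles enters these pooled values too, since 48 of the 75 were unassigned, so values within alleles are given below. The Spearman correlation between the readouts near starts and over 2 kb away was 0.609 and 0.571 for B6, 0.379 and 0.543 for SPRT, and 0.118 and 0.427 for unassigned hotspots. The 64 unassigned hotspots near starts had a median of 0.249 times the line, and 48 of them (75%) lay 2-fold or more below, against 43.6% of unassigned hotspots over 2 kb from starts. The 66 SPRT hotspots near starts had a median of 1.10 times the line against 1.44 over 2 kb away, and 22.7% against 8.03% lay 2-fold or more below. The 29 B6 hotspots near starts had a median of 0.684 against 0.857 times the line, and 31.0% against 27.2% lay below. Homolog fractions still followed each other near starts, with rho 0.897 over 123 hotspots, against 0.927 over 2 kb away. Within alleles rho near starts was 0.769 for B6 (n = 18), 0.872 for SPRT (n = 58) and 0.814 for unassigned hotspots (n = 46). Each was below the value over 2 kb away, which was 0.898, 0.912 and 0.887 in that order.

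Of the 9 hotspots furthest below the lines of their own alleles, the 3 whose sequences are given above lay at such starts. The unassigned hotspot on chromosome 9 at position 123021370, at the Tmem42 start shown above, had 1905 ChIP and 22 input reads but a DMC1 signal of 8.03, which is 12.6-fold below its line. The one on chromosome 4 at 155624818, at the Cdk11b start, had 2342 ChIP and 38 input reads and a signal of 8.14, 10.5-fold below. The third, on chromosome 10 at 70520223 within Fam13c, was far from any start and had a signal of 7.63 on 752 ChIP and 31 input reads, 6.97-fold below. Of the SPRT hotspots, that on chromosome 17 at 31678151 within Cryaa had a signal of 9.10 on 189 ChIP and 20 input reads, 11.8-fold below. The next, on chromosome 4 at 114073186, lies 73.7 kb from Skint5, outside genes, and had 132 input reads, no SNP-carrying read and a signal of 10.6. That input is far above the median window of 19 reads. The third lay 6.72 kb from Fam3b on chromosome 16 at 97511660, with a signal of 16.5 on 505 ChIP and 27 input reads.

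Of the B6 hotspots below the line, that on chromosome 13 at 50137531, within the long noncoding RNA gene 4933433N18Rik and 538 bp from its start, had a DMC1 signal of 10.4 on 547 ChIP and 13 input reads. It was 26.4-fold below the line of the B6 allele. The next lay within Has1, a hyaluronan synthase gene, on chromosome 17 at 17843821, with a signal of 8.99 on 453 ChIP and 23 input reads. The third lay within Purb, which encodes a single-strand DNA binding protein, on chromosome 11 at 6474798, 1278 bp from the gene's start, with a signal of 21.6 on 1653 ChIP and 41 input reads. Its H3K4me3 was even, at 49.6% from B6 (95% Wilson interval 46.8 to 52.5%, 1179 reads), whereas 7.69% of its DMC1 reads came from B6. The Has1 hotspot was alike, at 35.5% (interval 31.98 to 39.1%) against 4.17%.

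Above the lines stood hotspots with modest H3K4me3 and strong DMC1. For B6 they lay on chromosome 15 at 7652534, 157.5 kb from Gdnf, on chromosome 13 at 3599921 within Tasor2, and on chromosome 14 at 117800349 within Gpc6, a glypican gene. Their DMC1 signals were 575, 634 and 297, which is 14.4, 12.7 and 11.4-fold above the B6 line. The first had 118 ChIP and 22 input reads, and 0.488% of its DMC1 and 7.03% of its H3K4me3 reads came from B6. For SPRT they lay within Nim1k, a protein kinase gene, on chromosome 13 at 119731983, within Elavl2, which encodes an RNA-binding protein, on chromosome 4 at 91388469, and within Zeb1, a transcription factor gene, on chromosome 18 at 5636992. Their signals were 480, 596 and 474.5, and they lay 15.0, 11.9 and 11.4-fold above the SPRT line. ChIP reads numbered only 38, 70 and 42 there, on 21, 21 and 16 input reads, so counting error in H3K4me3 is wide at these places. Unassigned hotspots above their line lay within Perm1 on chromosome 4 at 156220851, 14.7 kb from Nlrp12 on chromosome 7 at 3203979, and 27.3 kb from Pdzd8 on chromosome 19 at 59373125. Their signals were 510, 621 and 497, at 23.8, 22.2 and 19.4-fold above that line.

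Departure also varied along the chromosomes, a comparison chosen after seeing the data. In the first 20 Mb of the autosomes, the end that holds the centromere in the mouse, the median was 1.11 times the line of all hotspots for B6 (n = 532), 1.77 times for SPRT (n = 1198) and 0.655 times for unassigned hotspots (n = 577). From 80 Mb to the end it was 0.818, 1.32 and 0.526 times. Median ChIP over input in the first 20 Mb and from 80 Mb on was 5.26 and 6.94 at B6, 7.62 and 9.24 at SPRT, and 3.62 and 4.63 at unassigned hotspots. Median DMC1 signal was 47.0 and 45.1, 113 and 98.0, and 18.7 and 19.7. H3K4me3 was thus lower at the centromere end in all 3, whereas DMC1 had no common direction. In the bins of 20 Mb between these stretches, median DMC1 was 40.3, 41.2 and 41.2 at B6 hotspots. It was 115, 106.5 and 100.5 at SPRT and 20.4, 19.5 and 19.97 at unassigned hotspots. DMC1 was therefore highest in the first 20 Mb at B6 hotspots, but not at SPRT or unassigned hotspots. The first 20 Mb were above the stretch from 60 Mb on for 15 of 19 autosomes at B6 hotspots, 16 of 18 at SPRT hotspots and 14 of 19 at unassigned hotspots, so some autosomes ran the other way.

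The widest gaps between homolog fractions at single hotspots ran in both directions. For the B6 allele, the H3K4me3 of a hotspot within Otud7a, a deubiquitinase gene, on chromosome 7 at 63542666 was 84.0% from B6 (95% Wilson interval 78.5 to 88.4%, 213 reads) and its DMC1 8%. It is the 1 hotspot of that allele in opposite classes, at a weak DMC1 signal of 13.0. At the next, on chromosome 13 at 116386461, 76.8 kb from Isl1, the fractions were 70.3% (interval 64.9 to 75.3%) for H3K4me3 and 6.45% for DMC1. Within Ust on chromosome 10 at 8357855 they were 67.0% (interval 61.4 to 72.2%) and 6.76%. In the other direction, DMC1 exceeded H3K4me3 at a B6 hotspot 1.21 kb from Clta, a clathrin light chain gene, on chromosome 4 at 44002604, with 71.9 against 25.8% (interval 18.9 to 34.2%). It did so within Gm26839 on chromosome 12 at 99585783, with 97.6 against 53.0%, and within Fcna, a ficolin gene, on chromosome 2 at 25630672, with 95.7 against 52.6%. DMC1 signals were 37.8 and 70.3 at the Isl1 and Ust hotspots, and 15.1, 13.7 and 105 at those of Clta, Gm26839 and Fcna. The error of the DMC1 fractions is unknown.

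At SPRT hotspots the widest gap lay on chromosome 12 at 27016543, 12.45 kb from the long noncoding RNA gene Gm30515, with 96.1% of H3K4me3 (interval 93.5 to 97.7%, 357 reads) and 28.2% of DMC1 reads from B6. The next lay within Clcn4, a chloride transporter gene, on chromosome 7 at 7294440, with 70.7 and 4.44%, and within Ermard on chromosome 17 at 15063251, with 71.8 and 16.9%. DMC1 was the more B6-sided readout within Tmem53 on chromosome 4 at 117258852, with 94.9 against 38.1% (interval 35.2 to 41.1%, 1050 reads). The same held 11.5 kb from Tgfbr3 on chromosome 5 at 107095050, with 93.6 against 44.8%, and within Sspn on chromosome 6 at 145945565, with 96.8 against 49.5%. DMC1 signals were 66.7, 30.6 and 144.5 at the hotspots of Gm30515, Clcn4 and Ermard. At those of Tmem53, Tgfbr3 and Sspn they were 91.5, 19.7 and 39.1. Unassigned hotspots reached from 59.5 percentage points within Pth2r on chromosome 1 at 65350987 (98.2% DMC1, 38.7% H3K4me3) to -75.5 within Asns, the asparagine synthetase gene, on chromosome 6 at 7691169 (6.06% DMC1, 81.6% H3K4me3). DMC1 signals at the Pth2r and Asns hotspots were 94.0 and 16.2. A gap of over 25 points was found at 418 B6 hotspots (17.0%), 551 SPRT hotspots (7.48%) and 644 unassigned hotspots (18.4%), beside 12.1% of all hotspots compared. A gap of at most 5 points was found at 13.1, 26.4 and 15.7%, beside 21.1% of all hotspots compared.

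The 2 strongest hotspots of each allele with nearly equal fractions were one-sided for B6 and of both kinds for SPRT. The strongest such B6 hotspots lay on chromosome 17 at 87220976, 33.5 kb from Mcfd2, with a DMC1 signal of 519, and within Ptprg on chromosome 14 at 12166272, with 499. Both came almost only from the SPRT homolog, with 0.745 and 0.602% of DMC1 and 4.86 and 4.32% of H3K4me3 reads from B6. For SPRT, the hotspot within Ttc14 on chromosome 3 at 33809696 had a signal of 833 and was even in both, at 51.5% for DMC1 and 50% for H3K4me3 (interval 44.0 to 56.0%, 260 reads). That on chromosome 15 at 24887481, 475.8 kb from Basp1, had a signal of 724 and stood at 99.95 and 96.7%. Among unassigned hotspots, those within Cdcp1 on chromosome 9 at 123178057 and within Hook3 on chromosome 8 at 26089132 had signals of 530 and 528, with 99.55 and 99.64% of DMC1 reads from B6.

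How far a departure repeats was read in the other B6SPRTF1 genotypes, which share the SPRT allele and the homologs but carry a humanized (Hum/SPRT) or CAST (CAST/SPRT) Prdm9 allele in place of B6. Their mice, DMC1 libraries, ChIP and input samples are separate from those of B6/SPRT. SPRT hotspots with centers within 500 bp were paired, 9128 with Hum/SPRT and 5025 with CAST/SPRT, and each departure was taken from the SPRT line of its own table. Pearson's r between departures was 0.906 (rho 0.910) for Hum/SPRT and 0.832 (rho 0.834) for CAST/SPRT. The SD of departures was 1.04 on the log2 scale over the pairs with Hum/SPRT, and the error of a single reading, from the differences between the genotypes, was 0.33. Most of the scatter around the SPRT line thus recurred in separate mice. Of 1569 paired hotspots 2-fold or more above the line in B6/SPRT, 1307 (83.3%) were so in Hum/SPRT, where 19.4% of all paired hotspots were. Of 1606 below it, 1210 (75.3%) were below it again, where 20.2% of all pairs were. In CAST/SPRT these shares were 46.5% of 1475 and 82.8% of 134, with 14.95 and 14.9% of all pairs. The pairs with CAST/SPRT hold 54.3% of the SPRT hotspots of B6/SPRT and few of those below the line. The genotypes share the sequence of both homologs at these places and the authors' processing, and which of these the repeat goes with was not tested.

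**Figure D5:**
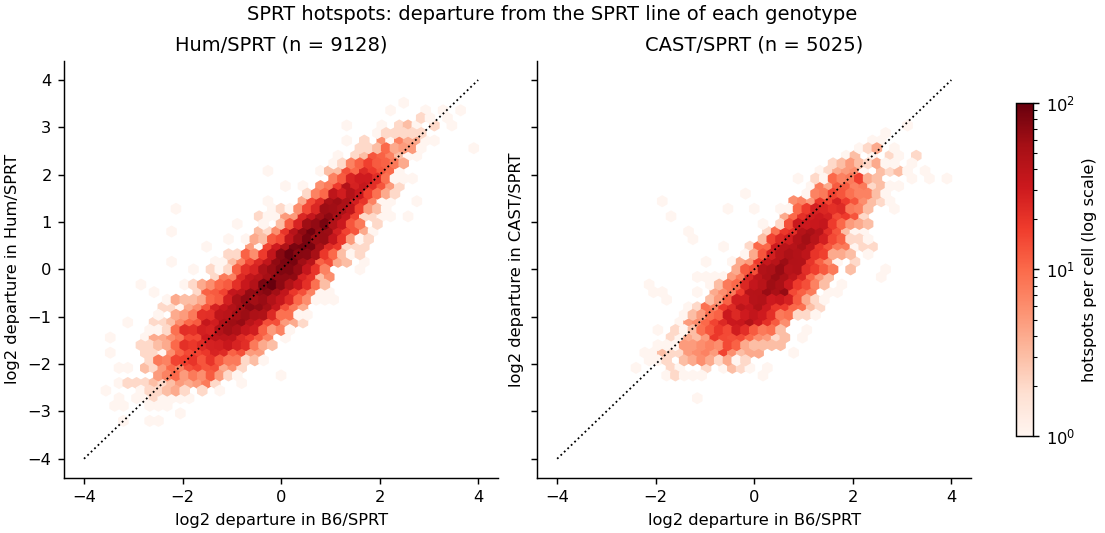
Log2 departure of SPRT hotspots from the SPRT line in B6/SPRT (horizontal) and in Hum/SPRT or CAST/SPRT (vertical), shaded by hotspots per cell on a log scale, with equality dotted. Departures in the genotypes rise together, with r = 0.906 over 9128 pairs on the left and r = 0.832 over 5025 pairs on the right.

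The gap between homolog fractions repeated as well. Over SPRT hotspots with both fractions in both genotypes, the DMC1 minus H3K4me3 difference had r = 0.829 between B6/SPRT and Hum/SPRT (n = 6877) and r = 0.666 between B6/SPRT and CAST/SPRT (n = 3863). Of 500 hotspots with a gap of over 25 points in B6/SPRT, 490 had a gap of the same direction in Hum/SPRT, and 216 (43.2%) again one of over 25 points, where 5.22% of all pairs had one. In CAST/SPRT, 134 of 136 had the same direction and 52 (38.2%) again a gap of over 25 points, where 3.26% of all pairs had one. The share of all pairs with gaps of the same direction was not counted, so the counts of direction have no background. The Tmem53 hotspot stood at 94.9% for DMC1 and 49.2% for H3K4me3 in Hum/SPRT, and that near Gm30515 at 36.4 and 93.2%. The Clcn4 hotspot stood at 12.5 and 56.6%. The Nim1k, Elavl2 and Zeb1 hotspots were 2.64, 3.31 and 3.095 above the SPRT line of Hum/SPRT on the log2 scale, and 1.98, 2.01 and 2.12 above that of CAST/SPRT. The Cryaa hotspot had a log2 departure of -2.49 in Hum/SPRT and was not paired in CAST/SPRT. Over all SPRT hotspots, rho between the strengths in B6/SPRT was 0.540, beside 0.502 in Hum/SPRT and 0.4155 in CAST/SPRT, with class agreement of 85.6, 86.25 and 91.5%. The share of H3K4me3-matched SPRT hotspots that were one-sided by DMC1 was 32.1% (interval 30.5 to 33.8%), 30.0% (28.4 to 31.6%) and 25.8% (23.4 to 28.4%).

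The KO class was too small for a comparison of homologs, with both fractions at 6 of its 50 hotspots, of which 4 agreed in class. Its strongest hotspot, within Stxbp5 on chromosome 10 at 9797576, had a DMC1 signal of 308 on 440 ChIP and 20 input reads, with 100% of DMC1 and 92.3% of H3K4me3 reads from B6. Its weakest, on chromosome 2 at 40238597 and 356.7 kb from Lrp1b, had a signal of 8.63 on 3 ChIP and 2 input reads. Input coverage was low in this class, with a median of 12.5 reads, and 3 of its hotspots lay within 500 bp of a gene start, each 2-fold or more below the line.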

How the data were processed

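H3K4me3 ChIP, input and DMC1 SSDS were done on whole testis of B6/SPRT males. For DMC1 SSDS the authors selected single-stranded reads and called hotspots de novo, gave each a PRDM9 allele by comparison with mice of other alleles, and assigned reads to homologs by SNPs homozygous in SPRET/EiJ. BWA and mm10 are named in the submitters' processing notes, with no version. The DMC1 signal was deposited as the value of the authors' caller, with unstated scaling to depth. The fraction of DMC1 reads from B6 was deposited without its read number. For H3K4me3 the authors deposited a count of ChIP and of input reads per window, a ratio of enrichment (formula not given in the sources used here) and a fraction from B6 with its number of SNP-carrying reads. That number exceeds the ChIP count at 94.9% of hotspots, so it was counted otherwise. No source says whether samples were pooled, and with 1 column each, both samples of a kind were assumed to be in it. Columns with p-values and a mark of sharing, 9 in the 3 tables used, were left out.

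From these, log2((ChIP + 1)/(input + 1)) was set against log2 DMC1 signal, and the B6 fractions against each other with 50 or more SNP reads, by Pearson and Spearman correlation, least squares and classes cut at 25 and 75%, with Python 3.11.15, numpy 2.4.6, pandas 2.3.3, scipy 1.17.1 and matplotlib 3.10.9. No test was made, since there is 1 DMC1 library and hotspots are not replicates. The spread over 19 autosomes and 95% Wilson intervals describe these libraries only. Functions were tested on simulated data. Hotspots were named by rule: per allele, the 3 furthest above and 3 furthest below its line with 10 or more input reads, the 3 widest differences of fractions in each direction with 100 or more SNP reads, and the 2 strongest with fractions within 5 points. In the KO class these were the strongest and the weakest. Some unassigned hotspots the rule named are given by their range only. Members, lists and comparisons were chosen with earlier results of these data known. Gene positions and starts are RefSeq's for GRCm38.p6 (the build called mm10), with no starts for chromosome 18. Exons and introns were not analysed here.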

Additional observations from a re-analysis of the deposited data

How the results depend on the processing

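Of 126 alternative values, 86 moved by less than the spread over autosomes, or by less than 1.5 times for counts, and none of the larger shifts changed a sign, although some changed the order of the alleles. The former include all 12 of DMC1 signal per H3K4me3 by class, although the value of B6-sided against matched hotspots of the B6 allele went from -0.16 to 0.0042 on the log2 scale with classes from DMC1. The authors' enrichment, a pseudocount of 5, 10 or more input reads and the removal of hotspots within 2 kb of gene starts moved nothing beyond that. This removal also left out chromosome 18, which has no starts here. With a DMC1 signal of 20 or more, the correlation for B6 was 0.467, under the 0.524 of SPRT in place of above it, and its slope 0.705 beside 0.693 for SPRT. ChIP coverage alone gave a slope of 0.651 for SPRT. The reduced major axis gave slopes of 1.72 for B6, 1.40 for SPRT and 1.12 for unassigned hotspots, in the same order as by least squares. For homolog fractions, a DMC1 signal of 50 or more gave rho 0.809, slope 0.997 and agreement 78.2% for B6, and 0.931, 1.245 and 76.3% for unassigned hotspots, whose slope was then under the 1.303 of SPRT. With 200 or more SNP reads the slopes of B6, SPRT and unassigned hotspots were 1.09, 1.29 and 1.299. On the logit scale they were 1.67, 1.69 and 1.86. With input-level reads subtracted, the alternative added after seeing the data, they were 0.95, 1.14 and 1.06, again with SPRT above unassigned hotspots, and agreement was 78.0, 88.3 and 79.0%. Classes cut at 10 and 90% agreed at 56.3, 71.5 and 59.9%. Cut at 40 and 60% they agreed at 75.6% for B6 and 82.3% for SPRT. Weighted by DMC1 signal agreement was 79.2, 88.7 and 75.2%, and SPRT stayed highest in each of these. Departures of 4-fold or more numbered 175 above and 251 below for B6, 708 and 74 for SPRT, and 65 and 537 for unassigned hotspots. From the reduced major axis line, 1379 SPRT hotspots were below and 752 unassigned hotspots above by 2-fold or more.

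No paired analysis was possible because each table holds 1 column for the H3K4me3 samples of a genotype, and leaving out a sample could not be done either. The KO class was not rerun. The reads behind the DMC1 fractions are unknown, so their error is not in any interval, and no hotspot with a DMC1 signal under 7.504 is listed, whose effect on the slopes was not tested.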
